A study of Mus musculus with 2 samples.

Results

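Plasma cell spots are the spots of the SH045 kidney section in which transcripts of the IgA heavy chain (Igha), the kappa light chain (Igkc) and the joining chain (Jchain) made up the largest share of the captured RNA. They were chosen by that share alone. Among the 788 spots of the section with at least 1000 UMIs (counts of distinct captured RNA molecules), a score was taken as the summed UMIs of the 3 genes as a percent of the UMIs of the spot. The 79 spots at or above the 90th percentile of the score form the set, and the other 709 are called remaining spots below. The series holds 1466 spots in all.

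The spots come from a mouse model of kidney fibrosis, unilateral ureteral obstruction, in which the ureter of a single kidney is closed by surgery. All mice were C57BL/6, all sections came from obstructed kidneys taken 7 days after surgery, and the spatial samples are 1 kidney of a mouse given SH045 and 1 kidney of a mouse given vehicle. The series title places the treatment under inhibition of TRPC6, a calcium-permeable channel. Frozen sections of 10 µm were laid on Visium slides, on which barcoded spots capture polyadenylated RNA from the tissue above them. The labels used here give neither the age nor the sex of the mice, nor a dose. With 1 section a group, spots are not replicates, so no p-value is given and treatments were not tested against each other. A spot can hold several cells of different types, and in such data fewer cells of a type and less RNA per cell cannot be told apart.

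Plasma cells are the antibody-secreting end stage of B cells. They devote a large part of their transcription to 1 rearranged heavy chain and 1 light chain, fold the chains in an expanded endoplasmic reticulum and secrete them. Those that make IgA usually also make the joining chain, which links IgA monomers into dimers that epithelial cells can carry to mucosal surfaces, and they depend on survival signals from the stroma and myeloid cells around them.

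Members and remaining spots were sequenced to similar depth. The members held a median of 28322 UMIs (range 7425 to 51773) and the remaining spots a median of 27447 (range 2545 to 72340). Mitochondrially encoded genes took 4.01% of UMIs in the members and 4.27% in the remaining spots. Across the 788 spots the Spearman correlation of depth with the score was -0.03. Both sections use the same slide layout, and 335 spot barcodes occur in both.

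The score had no gap at the threshold of 0.536%. The lowest member stood at 0.538% and the highest remaining spot at 0.535%, 11 members lay within 20% above the threshold, and 20 remaining spots lay within 20% below it. The members had a median score of 1.19% against 0.102% in the remaining spots. In 47 members the score reached 1% and in 20 it reached 2%, and the highest members stood at 8.63% and 5.06%. The signal was concentrated. The members are 10.0% of the spots and held 59.4% of the score UMIs of the section, and the 10 highest members alone held 23%. Only 2 remaining spots had no UMI of the 3 genes.

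**Figure D1:**
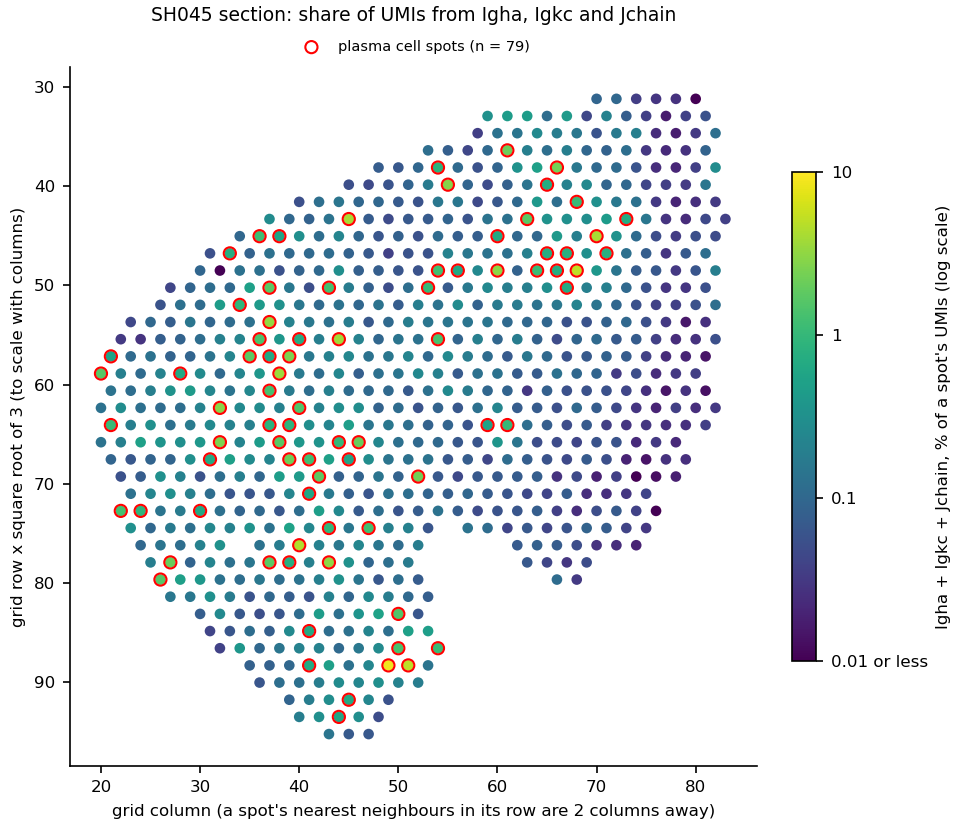
Map of the SH045 section, with spots placed by grid column and row and coloured by score, the percent of a spot's UMIs that came from Igha, Igkc and Jchain; outlined spots are the 79 plasma cell spots. The members were scattered, with 25 standing alone and the largest connected groups holding 8, 8 and 6 spots.

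The members were spread over the section but were more frequent in its interior. Depth into the tissue was taken as the number of grid steps to the nearest spot with fewer than 6 neighbours on tissue. The median distance was 5 steps for members and 3 for remaining spots. Of the spots at least 5 steps deep 16.7% were members, against 6.56% of the spots nearer to the edge. Adjacent members formed 42 connected groups: 25 members stood alone, 10 groups held 2 spots, 4 held 3, and the other 3 held 8, 8 and 6. An adjacent member was present for 54 of the 79, and 20.2% of the spots next to a member were members, against 9.03% of the spots next to a remaining spot. The section was also split by position into 4 blocks of similar spot number, which serve below to show the spread within the section. They held 25 members of 217 spots (11.5%), 16 of 201 (7.96%), 29 of 194 (14.9%) and 9 of 176 (5.11%).

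The promoters of 3 genes of the plasma cell programme are shown because they belong to a gene that chose the spots (Jchain) and to the genes for OCA-B and the Ig-alpha chain, which were among the most raised of the genes that did not. Each is the 250 bases before the start of the gene in RefSeq (GRCm38.p6, the assembly called mm10), read 5′ to 3′ on the strand of the gene, with every CCACG or its complement CGTGG in capitals. CCACG is the core of a sequence bound by XBP1, the transcription factor of the secretory programme. The Pou2af1 stretch is chr9:51213440-51213689 (plus strand), that of Cd79a is chr7:24897247-24897496 (plus strand) and that of Jchain is chr5:88527898-88528147 (minus strand).
Pou2af1: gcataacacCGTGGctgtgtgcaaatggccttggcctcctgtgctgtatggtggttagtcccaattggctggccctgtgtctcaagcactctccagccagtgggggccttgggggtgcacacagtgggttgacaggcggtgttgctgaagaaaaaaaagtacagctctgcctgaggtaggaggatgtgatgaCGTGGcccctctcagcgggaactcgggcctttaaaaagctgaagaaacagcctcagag
Cd79a: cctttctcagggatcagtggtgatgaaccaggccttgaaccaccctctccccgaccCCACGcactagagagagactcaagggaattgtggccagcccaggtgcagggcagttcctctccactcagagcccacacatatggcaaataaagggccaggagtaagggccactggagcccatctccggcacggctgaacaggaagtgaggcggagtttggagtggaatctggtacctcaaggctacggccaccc
Jchain: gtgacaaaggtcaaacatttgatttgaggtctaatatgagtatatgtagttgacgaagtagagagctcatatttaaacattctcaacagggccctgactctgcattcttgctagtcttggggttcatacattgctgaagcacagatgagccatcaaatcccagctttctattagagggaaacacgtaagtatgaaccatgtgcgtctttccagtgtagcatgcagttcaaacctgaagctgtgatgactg

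Pou2af1 held 2 matches, which begin 241 and 58 bases before its start, Cd79a held 1 at 194 bases, and Jchain held 0. Of 32851 promoter stretches of this length, 28.3% held CCACG on either strand, so these letters are common. The octamer ATGCAAAT, which the OCT factors and OCA-B bind and which 1.60% of the promoters held, was in none of the 3. A match, or its absence from this window, is a description of the letters only.

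The immunoglobulin genes, given as CPM (UMIs per 1000000 UMIs over all genes, summed over the spots of a set), chose the members and are described without comparison. Igha reached 9450 CPM in the members and 698 in the remaining spots. Igkc stood at 6620 and 518, and Jchain at 1111 and 82.8. The 3 genes kept nearly the same proportions in both sets: 11.8 Jchain UMIs per 100 Igha UMIs in the members and 11.9 in the remaining spots, and 1.43 and 1.35 Igha UMIs per Igkc UMI.

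Among the constant region genes IgA dominated nearly every member. Igha made up 96.6% of the heavy chain UMIs summed over the members, and over 95% in 72 of the 79. The median member had 99.1% Igha and no Ighg2c, and 54 members had no Ighg2c UMI at all. Ighm, the IgM heavy chain, was not raised (24.7 CPM in the members, 21.7 in the remaining spots), and neither was Ighg2b (20.6 and 22.7 CPM). Ighg2c, an IgG heavy chain, was carried by single spots. A pair of adjacent members held 357 and 192 of its 646 UMIs, or 85.0%. In the first of these Ighg2c was 73.2% of the heavy chain, with 129 Igha and 451 Igkc UMIs. It is the only member in which Igha was not the main heavy chain.

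Lambda light chains showed the same concentration. Over all members they were 4.77% of the light chain UMIs, yet the median member had 0.712%, and 2 members held 544 of the 739 lambda UMIs (73.6%). The first had 273 Iglc2 UMIs beside only 23 of Igkc, with 509 of Igha, so that 92.2% of its light chain was lambda. The other had 270 Iglc1 UMIs beside 734 of Igkc, or 27.0% lambda. Igkc exceeded Igha in 8 members. Lambda constant genes are close copies of each other, and how reads were divided between them is not known here. Of the variable region genes in the table, 14 had a UMI in a member, with 72 UMIs in all, 48 of them from Iglv1.

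**Figure D2:**
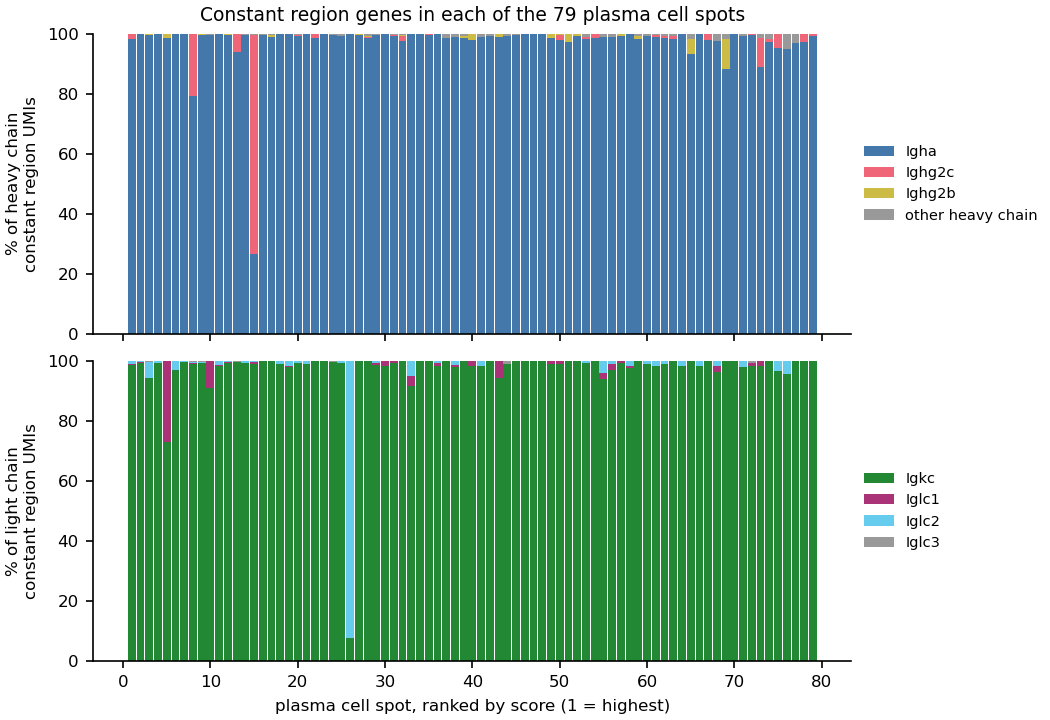
Constant region genes in each of the 79 plasma cell spots, ranked from the highest score on the left; the upper panel gives each heavy chain gene as percent of the spot's heavy chain UMIs and the lower panel each light chain gene as percent of its light chain UMIs. Igha fills nearly every column of the upper panel, 1 member is mostly Ighg2c (73.2%), and 1 member of the lower panel is mostly lambda (92.2%).

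A few spots rich in another isotype fell outside the set. These spots were picked after their values were seen. The 3 spots with the most Ighg2b held 119, 56 and 34 UMIs of it, of 504 in the section, beside 160, 65 and 56 UMIs of Igkc. Their scores of 0.441%, 0.310% and 0.304% lay under the threshold. The score counts Igha but no IgG heavy chain. All 3 had 0 UMIs of Mzb1.

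All values from here on leave out every gene whose symbol starts with Igh, Igk or Igl, and Jchain, so CPM is per 1000000 of the other UMIs. Where an immunoglobulin gene is itself named, its CPM is over all genes as above. These 396 names include Ighmbp2 and Iglon5, which are not immunoglobulins. A gene was measured if it reached 10 CPM in either set, and was taken as called where its CPM differed by 1.5-fold or more in either direction. A gene that reached 10 CPM in only 1 set could be called only as higher in that set. Intervals are 95% intervals for counting error only, exact binomial for folds and shares, and they cover neither the variation between mice nor between sections. Of 10499 measured genes, 180 (1.71%) were called higher in the plasma cell spots and 223 (2.12%) lower, and the median log2 ratio of all of them was 0.00. Thus 96.2% lay within 1.5-fold. The counting interval excluded 1 for 163 of the 180 higher and 180 of the 223 lower genes, and 105 and 113 kept their direction within each of the 4 blocks. How many of the 180 and 223 calls reflect counting error alone was not tested. At 2-fold or more 36 genes were higher and 41 lower. Counts of calls within the gene lists below are to be read beside the shares of 1.71% and 2.12%.

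Genes of the B lineage that did not choose the spots were raised with the score. Mzb1, an endoplasmic reticulum protein that helps fold antibody chains, had 76 UMIs in the members and 77 in all remaining spots (34.7 and 3.83 CPM, 9.07-fold, 6.52 to 12.6). It ranged from 0 to 454.5 CPM over the members with a median of 0, and 36 members had a UMI. After every spot of sufficient depth was thinned to 10000 UMIs, which left out 2 members and 18 remaining spots, 23.4% of members (14.5 to 34.4) and 3.91% of remaining spots (2.59 to 5.63) had an Mzb1 UMI. Pou2af1, which encodes the B cell coactivator OCA-B, stood at 12.8 and 1.29 CPM (9.90-fold, 5.595 to 17.6), from 28 and 26 UMIs. Cd79a, the signalling chain Ig-alpha of the B cell receptor, stood at 11.9 and 1.39 CPM (8.54-fold, 4.81 to 15.1), from 26 and 28 UMIs. The single-spot values of all 3 overlapped between the sets, and each was higher in all 4 blocks. Mzb1 was still 5.595-fold higher among spots at least 5 steps from the edge, a comparison added after the data were seen. At least 1 UMI of the 3 genes was present in 48 of the 79 members (60.8%) and in 106 of the 709 remaining spots (15%).

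Only a part of the plasma cell list moved. Of its 15 genes other than immunoglobulin, 8 were measured, 2 were called higher (Mzb1 and Pou2af1) and 0 lower, with a median log2 ratio of 0.47 beside 0.00 over all measured genes. Both called genes reached 10 CPM in the members only, so they could be called only as higher, and both count toward the median. The summed level of the list ranged from 309 to 1464 CPM over members (median 633) and from 0 to 1467 over remaining spots (median 519). Several lineage genes stayed under 10 CPM and were not called: Slamf7, a surface receptor, with 19 and 53 UMIs (3.30-fold), and Irf4, a transcription factor of plasma cell fate, with 20 and 75 (2.45-fold). Derl3, which retrieves misfolded protein from the endoplasmic reticulum, had 8 and 26 UMIs, and Prdm1, which encodes Blimp-1, had 9 and 50. Tnfrsf17, the survival receptor BCMA, had 2 and 5 UMIs. Genes of secretion that kidney epithelium also uses lay nearer to 1: Xbp1 at 209 and 196 CPM (1.07-fold, 0.965 to 1.17), Txndc5, a disulfide isomerase, at 214 and 164 CPM (1.31-fold), and Sec11c, a subunit of the signal peptidase, at 68.5 and 50.5 CPM (1.36-fold). Sdc1, which encodes the plasma cell surface marker CD138 and is also made by epithelium, was not higher (0.896-fold).

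The endoplasmic reticulum list did not set the members apart. All 32 of its import and folding genes were measured and 0 were called in either direction, with a median log2 ratio of 0.04 and a summed level of 7628 CPM in the members and 7389 in the remaining spots. The highest fold in the list was that of Sdf2l1, a partner of BiP (1.41), while Hspa5, which encodes BiP, stood at 0.97 and Calr at 1.03. In the unfolded protein response list, 2 of 16 genes were called higher. They are Chac1 (11.9 and 4.47 CPM, 2.66-fold) and Trib3 (10.1 and 5.66 CPM, 1.77-fold), both targets of the stress factor ATF4. Each reached 10 CPM in the members only and could be called only as higher. Of all measured genes, 1.71% were called higher.

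Transcripts of earlier B cell stages were few. Of 15 B cell genes, 2 were measured and 1, Cd79a, was called higher. Cd79b, its partner chain, lay within the threshold at 1.45-fold. Both genes reached 10 CPM in the members only, so neither could be called lower. Ms4a1, which encodes CD20, had 3 UMIs in the members and 12 in the remaining spots, and Pax5, the factor that marks B cells before they become plasma cells, had 0 in both. The summed list stood at 37.0 and 17.6 CPM (2.10-fold, 1.63 to 2.68).

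Genes were then ordered by their part in the plasma cell niche. Among receptors, Itgb7, the integrin chain that guides lymphocytes to mucosal tissue, stood at 18.7 and 6.06 CPM (3.09-fold, 2.11 to 4.43). It was higher in all 4 blocks, but reached 10 CPM in the members only and could be called only as higher. Ccr10, the homing receptor of IgA plasma cells, had 8 UMIs in each set, which is 9.19-fold in CPM with a counting interval from 3.01 to 28.1. It stayed under the level for a call. Itgal, a leukocyte integrin chain, was called at 1.501-fold with an interval from 0.931 to 2.32. Cxcr4, the receptor that holds plasma cells in bone marrow, had 15 and 201 UMIs (0.686-fold) and was not measured.

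Among 20 niche ligands and adhesion genes, 13 were measured, 5 were called higher and 0 lower, beside 1.71% and 2.12% of all measured genes. The lymphoid chemokines Ccl21a (50.7 and 20.02 CPM) and Ccl19 (31.1 and 12.3 CPM) were both 2.53-fold higher, but their excess depended on place. Within the blocks Ccl21a ranged from 0.565-fold to 34.7-fold, and without the block of fewest members it was 1.48-fold. Tnfsf13b, which encodes the B cell survival factor BAFF, stood at 20.5 and 11 CPM (1.86-fold, 1.32 to 2.58). Among spots at least 5 steps from the edge Ccl21a was at 1.03-fold, Ccl19 at 0.822-fold and Tnfsf13b at 1.05-fold, so none of these calls held there. Cxcl9, an interferon-induced chemokine, was 2.38-fold higher, with 14 of its 36 member UMIs in a single spot and 1.48-fold without it. Ccl28, the ligand of Ccr10, was called at 1.61-fold from 22 member UMIs and fell to 1.40-fold without its richest member. Both Cxcl9 (16.4 and 6.91 CPM) and Ccl28 reached 10 CPM in the members only, so they could be called only as higher. Other ligands lay within the threshold, among them Vcam1 at 1.27-fold, Cxcl12 at 1.14-fold and Tnfsf13, which encodes APRIL, at 0.93-fold.

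Genes of the route of IgA out of tissue were shifted by small amounts. Of 12 genes of IgA transport and Fc receptors, 11 were measured and 0 were called. Pigr, the epithelial receptor that carries dimeric IgA, stood at 48.9 and 38.9 CPM (1.25-fold, 1.02 to 1.54).

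The 12 genes of highest fold with at least 50 CPM and the same direction in every block were led by Lum, which encodes the collagen-binding proteoglycan lumican (58.5 and 17.1 CPM, 3.41-fold, 2.76 to 4.19). Its level over members ran from 0 to 1095 CPM with a median of 0, and its block values ran from 1.70-fold to 13.8-fold. Without its richest member it was 2.59-fold, and in spots at least 5 steps from the edge 1.74-fold. Serpina3n, an acute phase protease inhibitor, stood at 78.5 and 33.7 CPM (2.33-fold). Serpina1a (222 and 105 CPM), Serpina1f (356 and 171) and Serpina1b (166 and 82.0) were 2.12-, 2.08- and 2.02-fold higher. They are antitrypsin-type genes. Serpina1a and Serpina1b have near-identical sequences, so the division of reads between these is uncertain. The list went on with Ogn, a small proteoglycan (1.84-fold), Vegfd, a lymphatic growth factor (1.83-fold), Col14a1, a fibril-associated collagen (1.72-fold), H2-T23 and H2-Q7, both class I major histocompatibility genes (1.61- and 1.58-fold), Lbp, which binds bacterial lipopolysaccharide (1.57-fold), and Arg2, mitochondrial arginase (1.56-fold). These last 7 genes, from Ogn to Arg2, lay between 1.01-fold (H2-Q7) and 1.49-fold (H2-T23) among spots at least 5 steps from the edge, within the threshold.

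**Figure D3:**
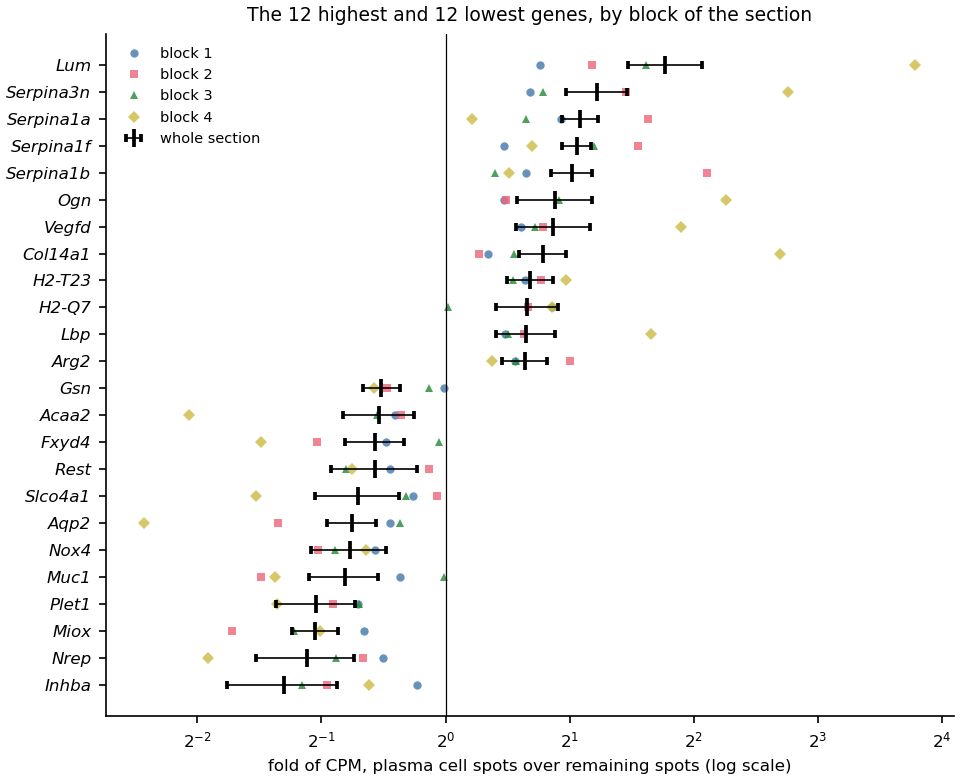
Fold of CPM in plasma cell spots over remaining spots, on a log scale, for the 12 genes of highest and the 12 of lowest fold; black marks give the whole section with 95% counting intervals and coloured points each of the 4 blocks. The direction is the same in every block by the rule of choice, and the blocks differ most for Lum, from 1.70-fold to 13.8-fold.

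Genes under 50 CPM included larger folds, and those named here were picked after their values were seen. Slpi, a secreted inhibitor of neutrophil proteases, had 99 UMIs in the members and 86 in the remaining spots (45.2 and 4.27 CPM, 10.6-fold, 7.85 to 14.3). It was higher in all 4 blocks and present in 34 members, and without its richest member it was 9.29-fold. Tent5c, an enzyme that lengthens the poly(A) tails of immunoglobulin transcripts, stood at 15.5 and 5.02 CPM (3.09-fold, 2.03 to 4.61). Ly6c2, a surface protein of monocytes and some lymphocytes, was 4.33-fold higher. Fmod, the proteoglycan fibromodulin, was 4.79-fold higher, and Saa1, an acute phase protein, 2.70-fold. Rbp4, the retinol carrier of blood, was 7.83-fold higher from 23 UMIs in 11 members.

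The fibroblast list was raised in part. Of 14 genes 12 were measured, 5 were called higher and 0 lower, with a median log2 ratio of 0.36. Of all measured genes 1.71% were called higher and 2.12% lower. Those called were Lum, Pi16 (2.12-fold) and Mfap5 (2.07-fold), both markers of adventitial fibroblasts, Fbln1 (1.86-fold) and Dcn, which encodes decorin (1.52-fold). Pi16 had 11 of its 36 member UMIs in a single spot and was 1.48-fold without it, within the threshold. It reached 10 CPM in the members only (16.4 and 7.75 CPM) and could be called only as higher. The summed list stood at 3346 and 2994 CPM (1.12-fold, 1.09 to 1.15). Within the blocks it ran from 1.16- to 1.37-fold, above its value over the whole section. Fibrillar collagens did not pass the call: of 26 structural matrix genes 3 were higher (Lum, Col14a1 and Dcn) and 1 lower (Col6a3, a collagen VI chain, 184 and 338 CPM, 0.54-fold, lower in 2 of the 4 blocks). Col1a1 stood at 1.24-fold and Col3a1 at 0.954-fold over the section, although Col3a1 was above 1 within each of the 4 blocks. The structural matrix sum was 1.06-fold over the section and 1.11- to 1.21-fold within the blocks.

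Immune genes of other cells were shifted by small amounts. All 8 measured MHC class II genes lay above 1 without reaching the call, with a summed level of 5515 and 4282 CPM (1.29-fold, 1.26 to 1.31). The monocyte and macrophage list had 19 of 20 genes measured, 0 called, and a summed level of 5462 and 4620 CPM (1.18-fold, 1.16 to 1.20). Over single spots this sum ran from 1808 to 11312 CPM in the members and from 1027 to 14834 in the remaining spots, so all members lay within the range of the remaining spots. In the MHC class I list 4 of 12 measured genes were called higher: H2-T23, H2-Q7 and the immunoproteasome subunits Psmb8 (1.51-fold) and Psmb9 (1.71-fold). The interferon list had 3 of 17 called higher, namely Gbp2 (1.61-fold), Irf7 (1.51-fold) and Gbp7 (1.52-fold). Over all measured genes 1.71% were called higher. Of 11 measured chemokines Ccl5 (1.73-fold) and Cxcl2 (2.03-fold) were called higher, but Ccl5 was at 0.954-fold once edge spots were left out. Cxcl2 (17.8 and 8.79 CPM) reached 10 CPM in the members only, so it could be called only as higher. The part that macrophage or interferon signal plays in the other differences was not tested.

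Markers of other lymphoid and granulocytic cells were sparse. The 16 T cell genes summed to 68.0 and 45.8 CPM (1.49-fold, with blocks from 0.741 to 4.08), the 10 NK and cytotoxic genes to 78.1 and 45.9 CPM, and the 11 neutrophil genes to 32.4 and 29.0 CPM. Mast cell and eosinophil genes summed to 5.02 and 6.46 CPM, and 6 of 12 had no UMI. Erythroid genes were lower, with all 3 measured genes called. Hbb-bs, a haemoglobin chain, stood at 15.1 and 27.9 CPM, but it was at 1.11-fold among spots at least 5 steps from the edge.

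Calls of tubule genes differed by segment. The proximal tubule reabsorbs most of the filtered solute. In the list of its first and second segment 17 of 18 genes were measured, 8 were called lower and 0 higher. Their median log2 ratio was -0.36. Of all measured genes 2.12% were called lower. Slc34a1, the main phosphate transporter, stood at 372 and 610 CPM (1.64-fold lower, but within the threshold at several other settings, among them 0.742-fold with equal weight per spot), and Miox, the enzyme that degrades inositol, at 113 and 234 CPM (2.07-fold lower). The others called lower were Slc13a3, Slc22a6, Slc22a8, Gatm, Slc5a2 and Acmsd. Acmsd (4.11 and 10.5 CPM) reached 10 CPM in the remaining spots only, so it could be called only as lower. The summed list did not follow, at 15921 and 15602 CPM, and among spots at least 5 steps deep the median was -0.047. Over single spots the median of the sum was higher in members (9625 CPM) than in remaining spots (7052 CPM). The highest remaining spot reached 104837 CPM in this sum and the highest member 60310. Within the blocks the sum ran from 0.878- to 1.41-fold. Single-spot medians of Slc34a1 were 303 CPM in members and 246 in remaining spots, in the other direction from its summed level. Its highest remaining spot reached 4580 CPM and its highest member 2360.

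In the list of the third, straight segment 12 of 12 genes were measured, with 4 called higher and 2 lower. Those higher were Serpina1d (2.01-fold), the organic anion transporters Slc22a19 (1.70-fold) and Slc22a7 (1.63-fold), and Cyp7b1, an oxysterol hydroxylase (1.61-fold). Serpina1d had 100 of its 358 member UMIs in a single spot and was 1.48-fold without it, within the threshold. It was lower in 1 of the 4 blocks. Cyp4b1 and Cyp2e1, both cytochrome P450 enzymes, were lower at 0.641-fold and 0.625-fold. Markers of injured tubule did not move together: of 18 genes, all measured, 1 was called higher (Krt20, a keratin, 1.53-fold) and 1 lower (Krt19, also a keratin, 0.657-fold). Over all measured genes 1.71% were called higher and 2.12% lower. The median log2 ratio of the 18 was -0.051 and 8 lay above 1. Havcr1, which encodes the injury marker KIM-1, stood at 1306 and 962 CPM (1.36-fold, 1.31 to 1.41) and was not called.

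The collecting duct was lower in the members. Of 10 measured principal cell genes 3 were called lower and 0 higher, and their sum was 516 and 688 CPM, lower in all 4 blocks. Aqp2, the vasopressin-regulated water channel, stood at 104 and 175 CPM (1.69-fold lower), with medians over single spots of 41.3 and 76.6 CPM. Against the remaining spots within 2 grid steps it was at 0.761-fold, and without block 2 at 0.726-fold, both within the threshold. Intercalated cell genes summed to 274 and 340 CPM, with 1 of 9 called lower (Kit, 7.31 and 14.3 CPM) and 0 called higher. Kit reached 10 CPM in the remaining spots only, so it could be called only as lower.

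**Figure D4:**
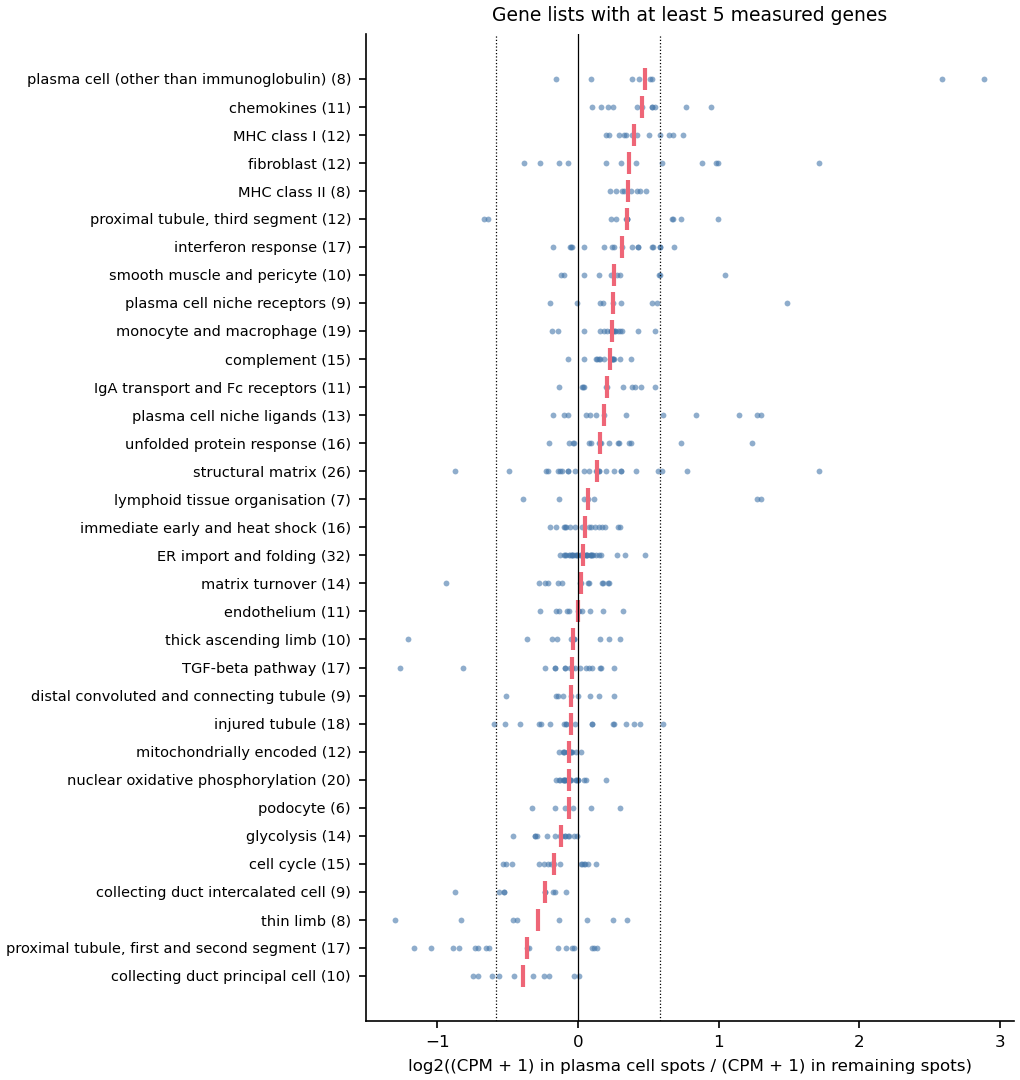
Log2 of CPM in plasma cell spots over remaining spots for each gene list with at least 5 measured genes; points are single genes, red bars the median of a list, dotted lines the 1.5-fold call, and brackets give the number measured. Medians lie between -0.39 for collecting duct principal cells and 0.47 for plasma cell genes, while the endoplasmic reticulum list (0.04) and endothelium (0.00) sit at the level of all genes.

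Among the 12 lowest genes 8 passed 1.5-fold. Inhba, a subunit of activin A, was 2.47-fold lower (21.0 and 51.9 CPM), Nrep, a small neuronal regeneration-related protein, 2.17-fold, and Plet1, an epithelial surface protein, 2.06-fold. Muc1, an epithelial mucin, was 1.76-fold lower, Nox4, the NADPH oxidase of the kidney, 1.71-fold, and Slco4a1, a transporter of organic anions, 1.63-fold. Against the remaining spots within 2 grid steps Muc1 (0.6998-fold) and Slco4a1 (0.843-fold) lay within the threshold. Miox and Aqp2, described above, complete the 8, and among spots at least 5 steps from the edge Miox (0.734-fold) and Nox4 (0.797-fold) lay within the threshold. The other 4 of the 12, Rest, Fxyd4, Acaa2 and Gsn, lay between 1.43- and 1.48-fold lower. Genes under the level of that list, again picked after their values were seen, included Col6a4, a collagen VI chain (9.59 and 38.3 CPM, 3.99-fold lower, in all 4 blocks), and Tnn, tenascin N (4 and 210 UMIs, 5.71-fold lower). Slc14a2, the urea transporter of the inner medulla, was at 35.2 and 88.1 CPM, lower in 3 of 4 blocks.

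The members were also ordered by score, into the 26 highest (at least 1.69%), the middle 26 and the 27 lowest (at most 0.855%), and the remaining spots by grid steps to the nearest member. Mzb1 stood at 74.5 CPM in the highest, 12.9 in the middle and 16.9 in the lowest members, and at 3.91, 4.36, 4.73 and 2.58 CPM at 1, 2, 3 and at least 4 steps. Its level was thus lower at 1 step than in the members and showed no order among the remaining spots by distance. Spots at 1 step are there because their score fell under the threshold. A drop there in a gene that goes with the score can come from this choice alone, so it is not read as an effect of distance. Pou2af1 gave 23.5, 11.5 and 3.91 CPM over the same 3 sets of members, and Cd79a 23.5, 7.17 and 5.21. Igha, which defined the order and is given as CPM over all genes, still changed outside the members, from 1038 CPM at 1 step to 307 at 4 steps or more.

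Other groups showed different orders. The MHC class II sum was 5376, 4981 and 6130 CPM from the highest to the lowest members, then 4913, 4536, 4114 and 3045 CPM with growing distance. The macrophage sum likewise went from 5020 CPM at 1 step to 4010 at 4 or more, and Serpina1f from 248 to 88.6 CPM. The fibroblast sum stood at 2688, 2660 and 2756 CPM at 1, 2 and 3 steps and at 4015 at 4 or more, beside 3346 in the members. The structural matrix sum stood at 10460, 10224, 10380 and 13419 CPM with growing distance, beside 11702 in the members, so both were highest in the farthest spots only. The genes of the third segment summed to 1875, 2229 and 2514 CPM from the highest to the lowest members. Lum stood at 96.6, 41.6 and 37.8 CPM in the members and 21.7 CPM at 1 step. Distance from a member goes with distance from the tissue edge, and the part of the edge in these gradients was not tested.

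**Figure D5:**
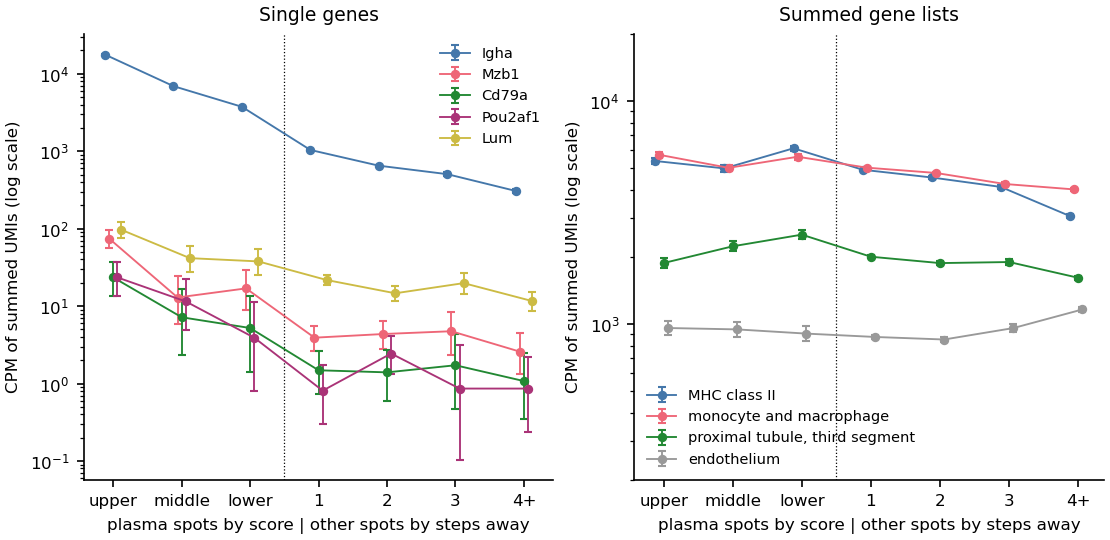
CPM of summed UMIs, on log axes, in the plasma cell spots by score (upper, middle, lower) and in the remaining spots by grid steps from the nearest plasma cell spot; the left panel shows single genes, the right panel summed lists, and bars are exact Poisson 95% intervals. CPM is over all genes for Igha and without immunoglobulin genes for the others. Mzb1 stands at 74.5 CPM in the highest members and 3.91 CPM at 1 step, where all scores lie under the threshold by the choice of spots. The MHC class II sum is 5376 CPM in the highest members and 4913 CPM at 1 step.

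As a description over single spots, 768 spots of sufficient depth were thinned to 10000 UMIs and each of 3957 genes was correlated with the score. The points share 1 section and neighbouring spots share tissue. Correlations were weak. The 10 highest were those of Havcr1 (0.36), the MHC genes H2-Ab1 (0.35), H2-K1 (0.35) and Cd74 (0.34), complement C3 (0.31), Tmem176a (0.31), H2-Aa (0.30), Napsa (0.30), Serpina1f (0.29) and B2m (0.29). Negative values were nearly as large, the lowest being that of Dio2, a deiodinase named after its value was seen (-0.33). Ribosomal protein genes were also among the lowest, such as Rps24 (-0.33), Rpl35 (-0.32) and Rps3a1 (-0.29), as was Slc14a2 (-0.33). These were likewise named after their values were seen. The score itself had a correlation of 0.31 with the distance of a spot from the tissue edge.

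The members shared some spots with other dense spots of the section. Of the 79 spots with the largest share of macrophage genes, 14 were also plasma cell spots, or 17.7% of each set. The overlap with the 79 spots richest in Vcam1 and chemokines (Ccl2, Ccl5, Cxcl10 and Cx3cl1) was again 14. Members are 10.0% of all spots of the section.

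In the Vehicle section the same genes were scarce. It held 659 spots with at least 1000 UMIs, at a median of 4932.5 UMIs over its 676 spots, far below the SH045 section. The 3 genes gave 1089 UMIs in all, and 430 spots (65.3%) had none. The 90th percentile of the score was 0.0411%, which 66 spots reached, and 4 spots (0.607%, 0.166 to 1.55) reached the SH045 threshold. The highest stood at 1.24%. Igha had 634 UMIs there, Igkc 392, Jchain 63 and Iglc2 66, while Ighg2c, Ighg2b and Pou2af1 had 0, Mzb1 4 and Cd79a 2. With depth, section and treatment all differing between 2 single mice, these values are set side by side and no difference between treatments is drawn from them.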

How the data were processed

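UMI counts per gene and spot, as deposited, were used for both sections; they are raw counts. Barcodes, gene symbols and spot positions were also used (other values: grid row, column and tissue flag). Space Ranger 2.0.1 made the counts, per the file headers, and mm10 is the build in the submitters' processing notes. The aligner settings and gene annotation were not given in the sources used here. The members and the gene lists were chosen with earlier results of these data known.

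Counts were summed over spots and scaled to CPM with Python 3.11.15, numpy 2.4.6, scipy 1.17.1 and pandas 2.3.3, and plotted with matplotlib 3.10.9. Log2 ratios used a pseudocount of 1 CPM, which understates low genes. Intervals are exact (conditional binomial for folds, Poisson for CPM, Clopper-Pearson for shares) and cover counting error only. No doublet caller was run. Genes named by rule include the 12 highest and 12 lowest by fold with at least 50 CPM and 1 direction in every block. These left out mitochondrially encoded, ribosomal protein, haemoglobin and predicted genes. The rules also took the 3 most abundant of each of 47 lists and the 10 genes best correlated with the score. Every plasma cell, B cell and niche gene was included as well. Other list members, such as Sdf2l1, Chac1, Psmb8, Irf7, Dcn, Krt20 and Kit, were named after their values were seen. Their single folds were not followed under the alternatives. Some others are marked in the text as picked later. Scripts were checked on simulated data. Of 10195 measured genes given the same level in both sets there, 127 were called. Alternatives changed the score cut, score genes, scaling, depth, level minimum, neighbours, blocks and edge. Images were not used.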

Additional observations from a re-analysis of the deposited data

Results flagged for a closer look

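Rest, which encodes a repressor of neuronal genes, had a fold below 1 in the SH045 section and above 1 in the Vehicle section. In the SH045 section it stood at 34.7 CPM in the plasma cell spots and 51.5 CPM in the remaining spots (0.674-fold). This was within the 1.5-fold threshold and lower in all 4 blocks. In the Vehicle section the 66 spots chosen by the same rule had 9 UMIs of Rest and the remaining spots 41, which is 18.5 and 10.7 CPM (1.73-fold, with a counting interval from 0.739 to 3.61). The difference between the sections was not tested, and the Vehicle interval includes 1. The Vehicle spots were chosen at a score threshold of 0.0411%, against 0.536% in the SH045 section. They held a median of 5 UMIs of the score genes and as few as 1, so the sets of the 2 sections are not alike.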

How the results depend on the processing

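The limits are 1 section of 1 mouse, sparse lineage genes and spots that mix cells. No paired analysis was possible because each group has 1 sample. Of 21 alternatives, 17 were fixed first and 4 were chosen after seeing the data. The counts of genes higher and lower (180 and 223) became 117 and 119 with the score cut at the 80th percentile, 340 and 434 at the 95th, 549 and 771 with spots thinned to 10000 UMIs, and 28 and 25 at a minimum of 50 CPM. They became 332 and 381 without block 1, 336 and 441 without block 3, and 359 and 441 with the upper part of the members by score. Among spots at least 5 steps from the edge 616 genes were lower, and 30.3% of all calls were higher against 44.7% in the whole section; 68 of the 180 higher and 139 of the 223 lower genes were shared. The median of the first and second proximal segment moved to -0.15 at the 80th percentile and -0.047 in these deep spots, and that of structural matrix to 0.25 without block 4. Of 41 list medians that answer no comparison, 18 kept their sign under every alternative and 23 took another sign under at least 1, among them dendritic cell (down to -0.16), lymphatic endothelium (-0.11) and neutrophil (-1.28). The direction also turned for the NK list (-0.066), counted among these 23, and for Ccl5 (0.954-fold) without edge spots, and for Hbb-bs (1.11-fold) and Ccl19 (0.822-fold) in deep spots. Of 39 genes named by rule and past 1.5-fold, 15 stayed past it under every alternative that gave a value. Among them were Mzb1 (5.595 to 14.3), Pou2af1 (7.46 to 15.9), Cd79a (6.76 to 13.5), Lum and Serpina3n. The plasma cell median ranged from 0.13 to 0.72, macrophage from 0.06 to 0.29 and endoplasmic reticulum from -0.01 to 0.07.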

Other observations

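Some remaining spots had scores just under the threshold. The tenth of remaining spots with the highest score had 10.5 CPM of Mzb1, 42.4 CPM of Lum and 78.6 CPM of Serpina3n, against 34.7, 58.5 and 78.5 CPM in the plasma cell spots. They also had 123 CPM of Ighg2b, against 20.6 CPM in the plasma cell spots, but 119 of its 236 UMIs there lay in 1 spot.

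The share of spots that were members did not change evenly with depth into the tissue. It was 8.13% of the 123 edge spots and 6.02% of the 83 spots at 4 steps, then 17.1%, 18.8% and 21.1% of the spots at 5, 6 and 7 steps, 6.67% of the 45 spots at 8 steps and 5 of the 25 spots at 9 steps. Median depth per spot was 29213 UMIs at the edge and 20345 at 8 steps.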
